A study of Homo sapiens with 30 samples.

Results

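The genes described here are TXNIP, its alpha-arrestin relatives ARRDC1, ARRDC2, ARRDC3 and ARRDC4, and the glucose-sensing factors MLX and MLXIP. They were taken by symbol from the table of estimated counts, 7 of its 60675 gene entries. The family was selected on the values of TXNIP and ARRDC4 at 500 µg/mL Yijin-tang, so for these 2 genes every contrast that involves that group is given as a description without a test. The genes and pathway lists were chosen with earlier results of these data known. The remaining p-values and counts may therefore not be free of that choice. The 7 genes all passed the filter on low counts in every comparison.

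The study measured RNA from SW1783, an established human astrocytoma cell line, after 24 h in the presence of ethanol extracts of herbal decoctions used in traditional Korean medicine. Each extract was given at 500, 100 and 20 µg/mL. Per concentration there were 3 libraries for Soshiho-tang, 3 for Yijin-tang, 2 for Okbyeongpung-san and 1 for Soyo-san, and the DMSO vehicle had 3, which makes 30 libraries in 13 groups. No genotype or other agent differs between the groups in the labels, and the sources give different DMSO concentrations for the vehicle. Whether replicate libraries stem from separate cultures is not said in the labels, so each p-value reflects the spread among libraries alone, and that spread may be technical. The 3 vehicle libraries carry a set name of their own, and the set and the vehicle cannot be told apart. By library name, Soshiho-tang and Yijin-tang share set 15, and Okbyeongpung-san and Soyo-san share set 14. In Okbyeongpung-san, the sample titles place replicate 2 of each concentration in batch E and replicate 3 in batch D, so replicate number and batch coincide. The titles place all Soyo-san libraries in batch D and all vehicle, Soshiho-tang and Yijin-tang libraries in batch E.

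Total estimated counts ran from 23.9 to 33.1 M per library with a median of 27.4 M. Of the defining astrocyte markers, GFAP did not exceed 0.205 CPM (counts relative to the library total in M) and AQP4 did not exceed 0.0702 CPM in any library, whereas SLC1A3 stood between 18.1 and 35.1 CPM and VIM between 3750 and 5590 CPM. S100B and ALDH1L1 stayed at or below 0.252 and 0.0966 CPM. Of the neuronal markers, RBFOX3 did not exceed 0.388 CPM, while SYT1 held 19.5 to 31.2, SNAP25 15.6 to 30.4 and TUBB3 59.6 to 115 CPM. Of the leukocyte markers, CD3E did not exceed 0.0361 CPM, while PTPRC held 4.18 to 12.9 and CD68 122 to 245 CPM. Of the epithelial markers, EPCAM and CDH1 did not exceed 0.205 and 0.288 CPM, while KRT18 held 49.1 to 153 CPM. The endothelial markers CDH5 and PECAM1 did not exceed 0.098 and 0.903 CPM. The part of these marker levels in the results was not tested. Replicate 3 of Yijin-tang at 500 µg/mL stood apart from its group. Its chi-square per degree of freedom against the other two libraries was 39.47 and 23.52, against 4.3 between those, and its mitochondrial share of counts was 10.61% against 6.7% and 7.35%. Pairs in other groups also differed widely. Replicates 2 and 3 of Soshiho-tang at 20 µg/mL gave 25.75, and the Okbyeongpung-san pairs, which cross batches, gave 17.74 to 25.54.

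Alpha-arrestins are adaptor proteins with arrestin folds and, in most members, PPxY motifs that recruit NEDD4 family ubiquitin ligases to membrane cargo. TXNIP binds and inhibits thioredoxin and promotes the internalisation of the glucose transporter GLUT1 (SLC2A1), and ARRDC4 is its closest relative with a like action on glucose uptake. Transcription of both is known to be driven by MLXIP (MondoA), which pairs with MLX and moves to the nucleus when phosphorylated glucose accumulates, and TXNIP is widely studied as a brake on glucose uptake in tumour cells, gliomas included. The pair binds the carbohydrate response element, a tandem of E-box-like motifs with a fixed spacing.

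The promoters of TXNIP and ARRDC4 are shown because these genes had the widest ranges over the 30 libraries. Both ranges take their highest values from 500 µg/mL Yijin-tang, on whose values these genes were selected. Outside that group TXNIP did not exceed 15.5 CPM and ARRDC4 did not exceed 13.1 CPM. Each sequence holds the 250 bases before the RefSeq transcription start (GRCh38.p14), 5′ to 3′ on the gene's own strand. That of TXNIP lies at chr1:145996580-145996829 on the minus strand, with a match to 2 copies of CACGNG set 5 bases apart in capitals, and that of ARRDC4 at chr15:97960453-97960702 on the plus strand, with the E-box CACGTG in capitals.
TXNIP: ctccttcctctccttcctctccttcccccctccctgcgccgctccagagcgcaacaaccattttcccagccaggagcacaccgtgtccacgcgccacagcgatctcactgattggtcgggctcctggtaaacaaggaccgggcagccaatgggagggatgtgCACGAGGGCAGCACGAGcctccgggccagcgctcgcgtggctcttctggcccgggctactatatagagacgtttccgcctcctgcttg
ARRDC4: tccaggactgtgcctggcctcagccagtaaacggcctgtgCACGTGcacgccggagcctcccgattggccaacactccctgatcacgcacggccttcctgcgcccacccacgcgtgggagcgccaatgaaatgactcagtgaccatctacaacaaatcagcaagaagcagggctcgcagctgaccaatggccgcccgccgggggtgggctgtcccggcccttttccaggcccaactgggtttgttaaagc
The tandem, with both copies in the same orientation, was searched on both strands in all 35116 RefSeq promoters of that length, and 16 of them (0.0456%) held it. Copies in opposite orientations were not searched. Among the 7 genes the tandem was found in TXNIP, where it spans 88 to 72 bases before the start. The E-box CACGTG, held by 6.34% of promoters, was found in ARRDC4 from 210 to 205 bases and in MLX from 50 to 45 bases before the start. The motif CCAAT, held by 32% of promoters and not overlapping either of the others here, was found 2 times in TXNIP, 3 times in ARRDC4 and 1 time each in ARRDC1, ARRDC3, MLX and MLXIP. A match describes letters in this window and not binding, which was not measured.

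TXNIP (ENSG00000265972, chr1:145992435-145996600, minus strand, GRCh38) varied most of the 7 genes, from 4.77 to 53.6 CPM, an 11.2-fold range that rested on 130 to 1715 counts per library. The top of this range lies in the group on whose values the gene was selected. In vehicle, TXNIP stood at 10.2, 9.6 and 11.2 CPM in replicates 1 to 3. With Yijin-tang it was at 8.43, 9.48 and 10.8 CPM at 20 µg/mL, at 10.6, 11.7 and 13 CPM at 100 µg/mL, and at 50.2, 50.1 and 53.6 CPM at 500 µg/mL. All 3 libraries at the highest concentration lay above every other library of the series, and the lower concentrations overlapped each other and the vehicle. The fold of 500 over 20 µg/mL Yijin-tang was 5.35 (log2 fold change 2.42 ± 0.08 SE), and without replicate 3 at 500 µg/mL the log2 fold change was 2.39. Most of the difference lay in the last step, where the mean of 500 was 4.37 times that of 100 µg/mL, against 1.23 times from 20 to 100 µg/mL. In bulk RNA, a changed share of cells that express a gene and a changed amount of RNA per cell cannot be told apart.

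With Soshiho-tang, TXNIP was at 9.6, 9.41 and 10.5 CPM at 20 µg/mL, at 11.7, 11 and 12.1 CPM at 100 µg/mL, and at 14.5, 14.8 and 15.5 CPM at 500 µg/mL. The libraries of neighbouring concentrations did not overlap. TXNIP rose at 500 against 20 µg/mL Soshiho-tang by 0.60 ± 0.08 on the log2 scale (edgeR quasi-likelihood test, Benjamini-Hochberg adjusted p = 9.06e-06).

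With Okbyeongpung-san the order was the opposite. TXNIP was at 9.48 and 8.76 CPM (replicates 2 and 3) at 20 µg/mL, at 8.58 and 8.43 CPM at 100 µg/mL, and at 5.02 and 4.77 CPM at 500 µg/mL. Both libraries at 500 µg/mL lay below every other library of the series. The log2 fold change of 500 against 20 µg/mL was -0.90 ± 0.12 (1.87-fold lower, edgeR adjusted p = 0.00133). Within batch E the log2 ratio was -0.92 (95% counting interval -1.23 to -0.61), and within batch D it was -0.88 (-1.19 to -0.57). The single Soyo-san libraries at 20, 100 and 500 µg/mL held 9.77, 10.1 and 9.0 CPM of TXNIP, with a log2 ratio of CPM + 1 of -0.11 between 500 and 20 µg/mL. Soyo-san has no replicate check. Without the added 1 its log2 ratio was -0.12, and the counting interval of that ratio, -0.37 to 0.13, includes 0.

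**Figure D1:**
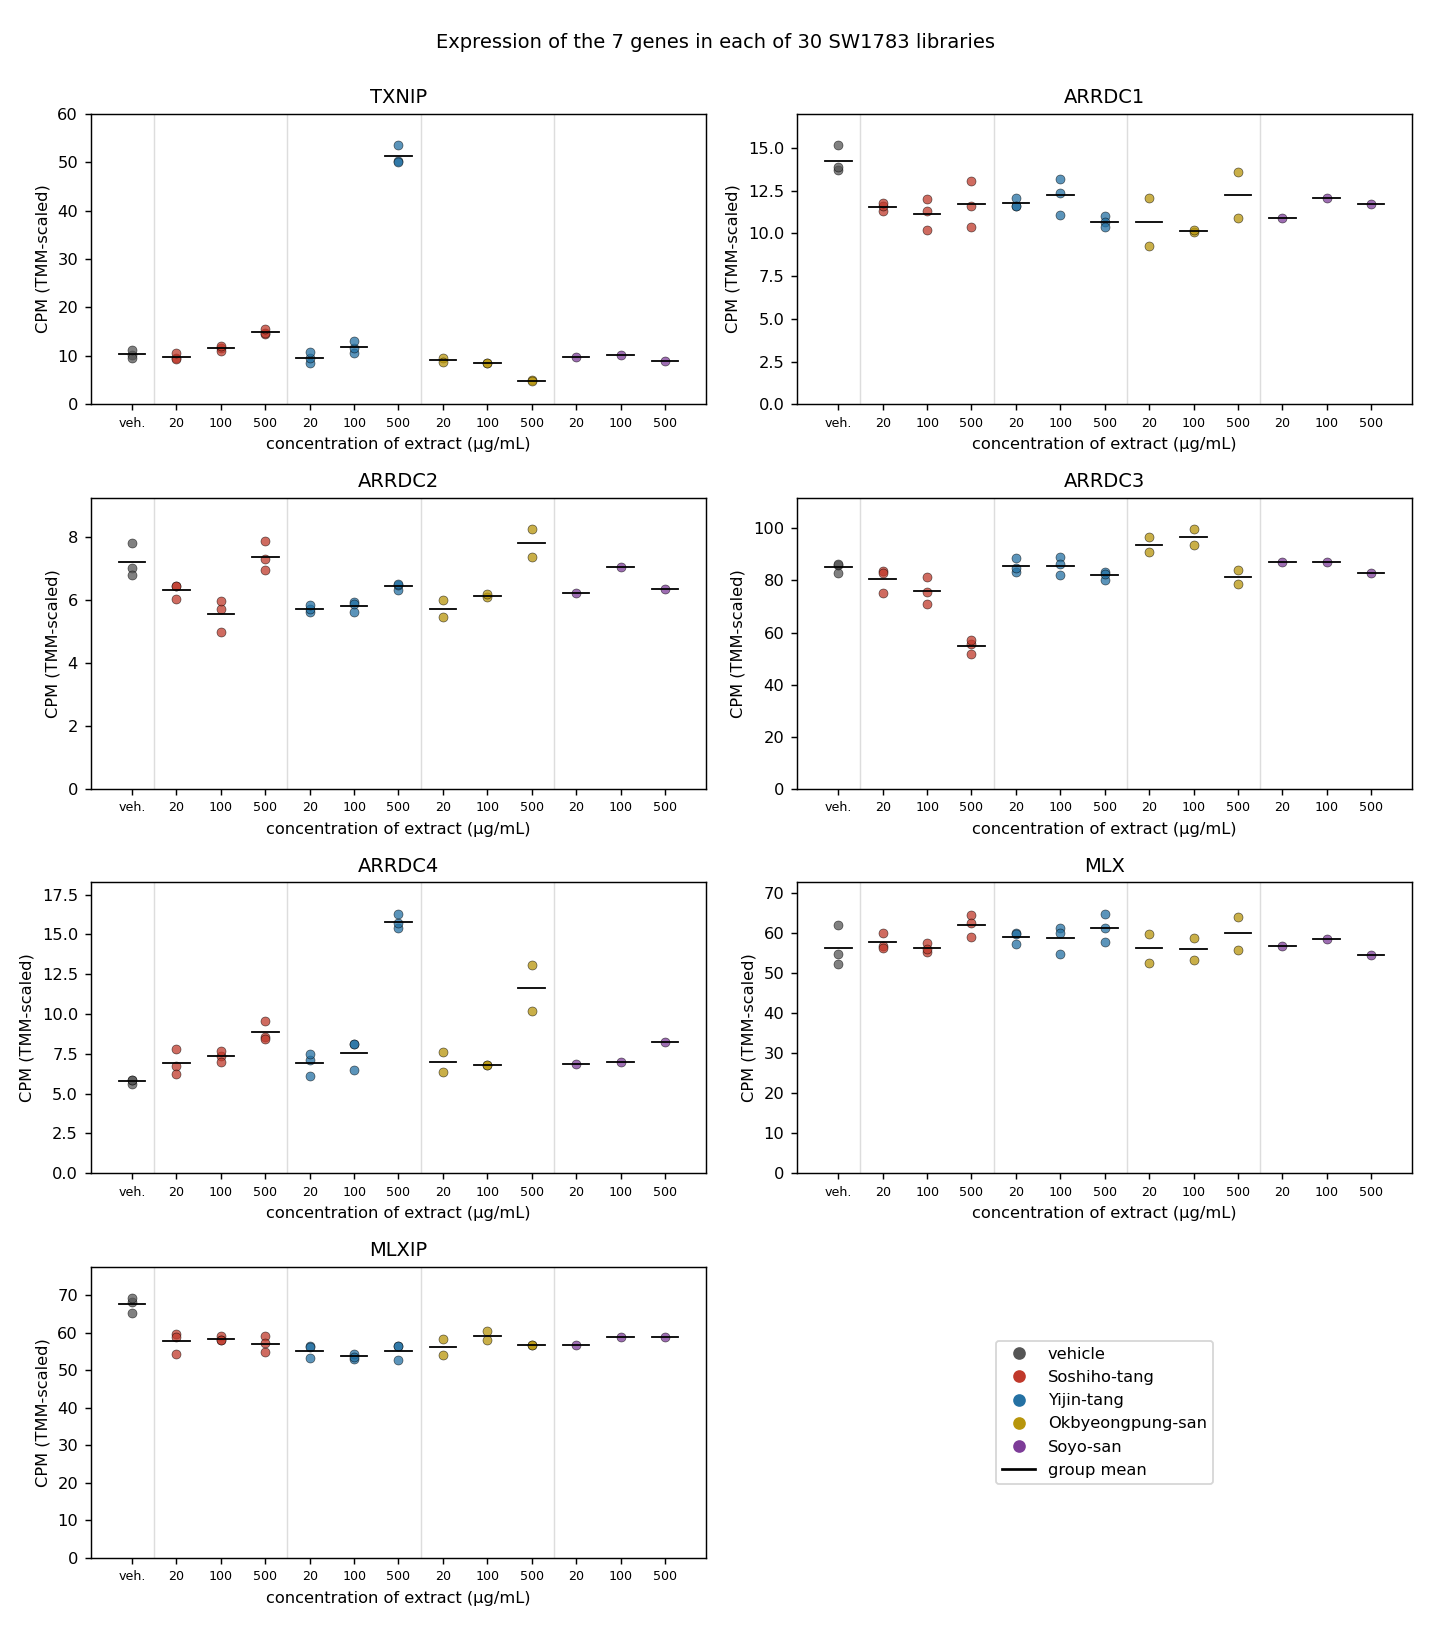
TMM-scaled CPM (vertical axis, linear from 0) of each of the 7 genes against extract concentration in µg/mL, with a point per library and a black line at each group mean. TXNIP at 500 µg/mL Yijin-tang (50.1 to 53.6 CPM) stands above all other libraries and at 500 µg/mL Okbyeongpung-san (4.77 to 5.02 CPM) below them, while ARRDC3 is lowest at 500 µg/mL Soshiho-tang.

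ARRDC4 (ENSG00000140450, chr15:97960698-97973838, plus strand) had a higher mean at 500 than at 20 µg/mL in all 4 extracts, including Okbyeongpung-san, where TXNIP was lower. In vehicle, ARRDC4 stood at 5.58, 5.83 and 5.88 CPM. With Yijin-tang it was at 6.13, 7.14 and 7.48 CPM at 20 µg/mL, at 6.47, 8.11 and 8.1 CPM at 100 µg/mL, and at 15.4, 15.7 and 16.3 CPM at 500 µg/mL. The 3 libraries at 500 µg/mL were the highest of the series, 2.28-fold above 20 µg/mL (log2 fold change 1.19 ± 0.09 SE, or 1.17 without replicate 3). With Okbyeongpung-san, ARRDC4 was at 7.64 and 6.35 CPM at 20 µg/mL, at 6.79 and 6.8 CPM at 100 µg/mL, and at 13.1 and 10.2 CPM at 500 µg/mL. It rose by 0.73 ± 0.14 on the log2 scale at 500 against 20 µg/mL (edgeR adjusted p = 0.00945), by 0.78 within batch E and 0.68 within batch D. Both libraries at 500 µg/mL lay above those at the lower concentrations. This call was lost in 3 of 10 alternatives (without replicate 2 at 500 µg/mL, without replicate 3 at 20 µg/mL, and with only the groups compared in the fit), over which edgeR's and DESeq2's adjusted p ranged from 4e-05 to 0.0624.

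With Soshiho-tang, ARRDC4 was at 6.71, 7.8 and 6.25 CPM at 20 µg/mL, at 7.37, 7.0 and 7.69 CPM at 100 µg/mL, and at 8.55, 9.57 and 8.45 CPM at 500 µg/mL. The libraries at 500 µg/mL lay above the rest, while 100 and 20 µg/mL overlapped. It rose by 0.35 ± 0.10 on the log2 scale at 500 against 20 µg/mL (edgeR adjusted p = 0.00864). Without replicate 2 at 500 µg/mL the value was 0.29 and the edgeR adjusted p 0.0566, the highest over 12 alternatives, of which the lowest was 0.00284. Soyo-san libraries at 20, 100 and 500 µg/mL held 6.84, 6.98 and 8.21 CPM of ARRDC4. The counting interval of the log2 ratio of 500 to 20 µg/mL, taken without the added 1, was -0.02 to 0.55 and includes 0.

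**Figure D2:**
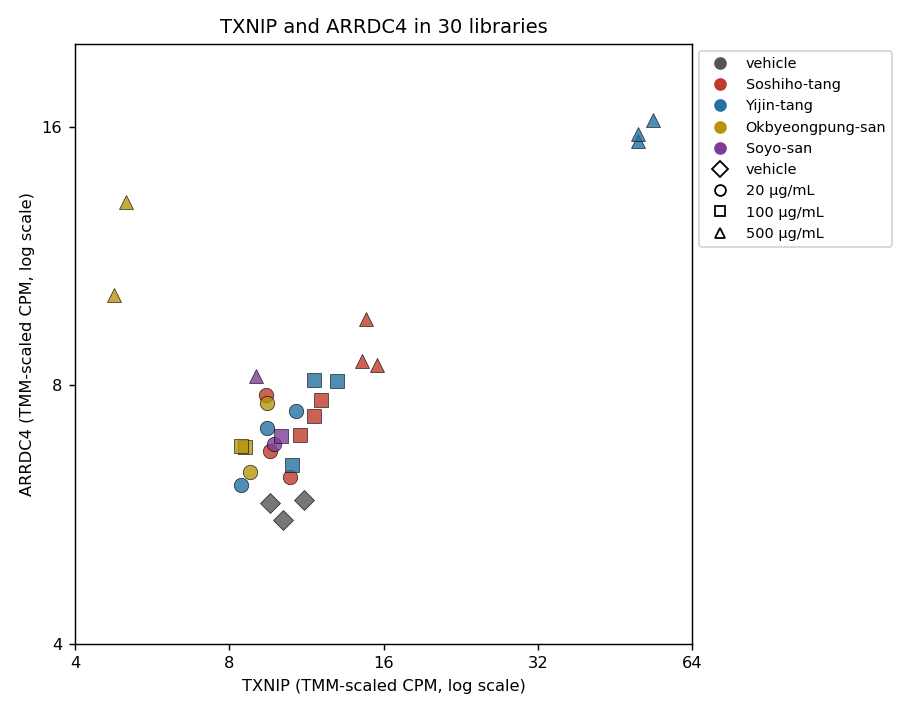
ARRDC4 (vertical) against TXNIP (horizontal), both in TMM-scaled CPM on log axes, with a point per library, extracts by colour and concentrations by shape. The 500 µg/mL libraries of Yijin-tang lie at high TXNIP and high ARRDC4, and those of Okbyeongpung-san at low TXNIP (4.77 and 5.02 CPM) and raised ARRDC4 (10.2 and 13.1 CPM).

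Over the 30 libraries Pearson's r between TXNIP and ARRDC4 was 0.66 on log2(CPM + 1), and over the 27 libraries left without Yijin-tang at 500 µg/mL it was -0.26. The libraries share sets and concentrations, so these values are descriptive. The plot of both genes shows the high value resting on the 3 Yijin-tang libraries.

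ARRDC3 (ENSG00000113369, chr5:91368724-91383359, minus strand) is an adaptor that promotes the degradation of integrin beta 4, and it fell with Soshiho-tang. In vehicle, ARRDC3 stood at 82.8, 86.0 and 86.5 CPM. With Soshiho-tang it was at 75.3, 83.7 and 82.8 CPM at 20 µg/mL, at 71.0, 81.2 and 75.7 CPM at 100 µg/mL, and at 55.4, 51.8 and 57.3 CPM at 500 µg/mL. The 3 libraries at 500 µg/mL were the lowest of the series, and the lower concentrations overlapped each other. The log2 fold change of 500 against 20 µg/mL was -0.56 ± 0.05 (edgeR adjusted p = 7.33e-08).

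With Yijin-tang, ARRDC3 was at 83.2, 84.6 and 88.8 CPM at 20 µg/mL and at 80.3, 83.3 and 82.4 CPM at 500 µg/mL. These libraries overlapped, and the log2 fold change was -0.06 ± 0.05 (edgeR adjusted p = 0.599). With Okbyeongpung-san it was at 96.7 and 90.9 CPM at 20 µg/mL, at 99.7 and 93.5 CPM at 100 µg/mL, and at 83.9 and 78.6 CPM at 500 µg/mL. The libraries at 500 µg/mL lay below those at 20 µg/mL, and the log2 fold change of -0.21 ± 0.08 did not pass (edgeR adjusted p = 0.108). In a single fit of 27 libraries the value was -0.21 with an edgeR adjusted p of 0.0383, and over 10 alternatives the adjusted p ran from 0.0383 to 0.38. The antisense gene ARRDC3-AS1, which overlaps ARRDC3, did not exceed 1.13 CPM in any library.

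ARRDC2 (ENSG00000105643, chr19:18001132-18014102, plus strand), a less studied alpha-arrestin, stayed between 4.98 and 8.25 CPM. At 20 and 500 µg/mL its mean was 6.31 ± 0.236 and 7.37 ± 0.474 CPM with Soshiho-tang (SD, n = 3 each) and 5.72 ± 0.383 and 7.82 ± 0.611 CPM with Okbyeongpung-san (n = 2 each), without overlap of libraries in either. It rose by 0.23 ± 0.08 on the log2 scale with Soshiho-tang (edgeR adjusted p = 0.0367) and by 0.44 ± 0.12 with Okbyeongpung-san (edgeR adjusted p = 0.0442). The first call was lost in 8 of 12 alternatives (adjusted p from 0.0316 to 0.231, edgeR and DESeq2) and the second in 7 of 10 (0.00204 to 0.213), leaving out any library of 500 or 20 µg/mL Okbyeongpung-san included. With Soshiho-tang the libraries that ended the call when left out were replicates 1 and 2 at 500 and each replicate at 20 µg/mL. At 100 µg/mL Soshiho-tang, ARRDC2 was lower than at 20 µg/mL, with a mean of 5.55 CPM, so its level did not follow the concentration. With Yijin-tang its mean was 5.71 ± 0.115 CPM at 20 and 6.44 ± 0.101 CPM at 500 µg/mL (n = 3 each), without overlap of libraries. The log2 fold change there was 0.17 ± 0.08 and did not pass (edgeR adjusted p = 0.31). Soshiho-tang minus Yijin-tang, this change differed by 0.06 ± 0.11 (edgeR interaction contrast, adjusted p = 0.819).

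ARRDC1 (ENSG00000197070, chr9:137605654-137615360, plus strand) recruits the budding machinery that releases vesicles from the plasma membrane. Its mean was 14.3 ± 0.829 CPM in vehicle (SD, n = 3) and between 10.2 and 12.2 CPM in the 12 extract groups, all of whose libraries lay below the lowest vehicle library at 13.7 CPM. At 500 against 20 µg/mL its log2 fold change was 0.02 ± 0.08 with Soshiho-tang, -0.13 ± 0.08 with Yijin-tang and 0.18 ± 0.14 with Okbyeongpung-san, and none passed (edgeR adjusted p = 0.862, 0.416 and 0.471). The overlapping antisense gene ARRDC1-AS1 stood between 14.4 and 22.8 CPM, above ARRDC1 itself in reads, and the strand setting of the counting is not given in the sources used here. Group means of ARRDC1-AS1 ran from 16.9 CPM (100 µg/mL Soyo-san, 1 library) to 21.9 CPM (500 µg/mL Yijin-tang), with 17.1 CPM in vehicle. Its part in the values of ARRDC1 was not tested. ARRDC5, the remaining alpha-arrestin, was listed at 0 in 27 of 30 libraries.

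MLX (ENSG00000108788, chr17:42567068-42573239, plus strand), the dimer partner, held 52.2 to 64.8 CPM over the 30 libraries, the narrowest range of the 7 genes at 1.24-fold. PSMC3IP, which overlaps MLX on the opposite strand, stood between 14.6 and 23.9 CPM. Without the strand setting, reads of MLX and PSMC3IP may be mixed. MLXIP (ENSG00000175727, chr12:122078722-122147347, plus strand), the glucose-responsive partner, held 52.8 to 69.3 CPM. At 500 against 20 µg/mL, MLX gave log2 fold changes of 0.11 ± 0.06 with Soshiho-tang, 0.05 ± 0.06 with Yijin-tang and 0.09 ± 0.11 with Okbyeongpung-san (edgeR adjusted p = 0.195, 0.709 and 0.662). MLXIP gave -0.02 ± 0.05, 0.0 ± 0.05 and 0.01 ± 0.07 (edgeR adjusted p = 0.818, 0.982 and 0.95). The libraries of 500 and 20 µg/mL overlapped for both genes in each of these extracts. MLXIPL (ChREBP), the related partner of MLX, stayed at or below 0.441 CPM in every library.

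On a scale of CPM per kb of merged exons, the vehicle libraries held 21.7 ± 1.95 of MLX, 20.3 ± 0.483 of ARRDC3, 9.01 ± 0.523 of ARRDC1, 7.18 ± 0.217 of MLXIP, 3.22 ± 0.26 of TXNIP, 2.45 ± 0.182 of ARRDC2 and 1.42 ± 0.0386 of ARRDC4 (SD, n = 3). TXNIP and ARRDC4, the targets known best for glucose response, were thus among the lower genes of the family. On the same scale TXNIP stood at 16 ± 0.616 in 500 µg/mL Yijin-tang (n = 3), above ARRDC1, and at 1.52 ± 0.0569 in 500 µg/mL Okbyeongpung-san (n = 2).

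**Figure D3:**
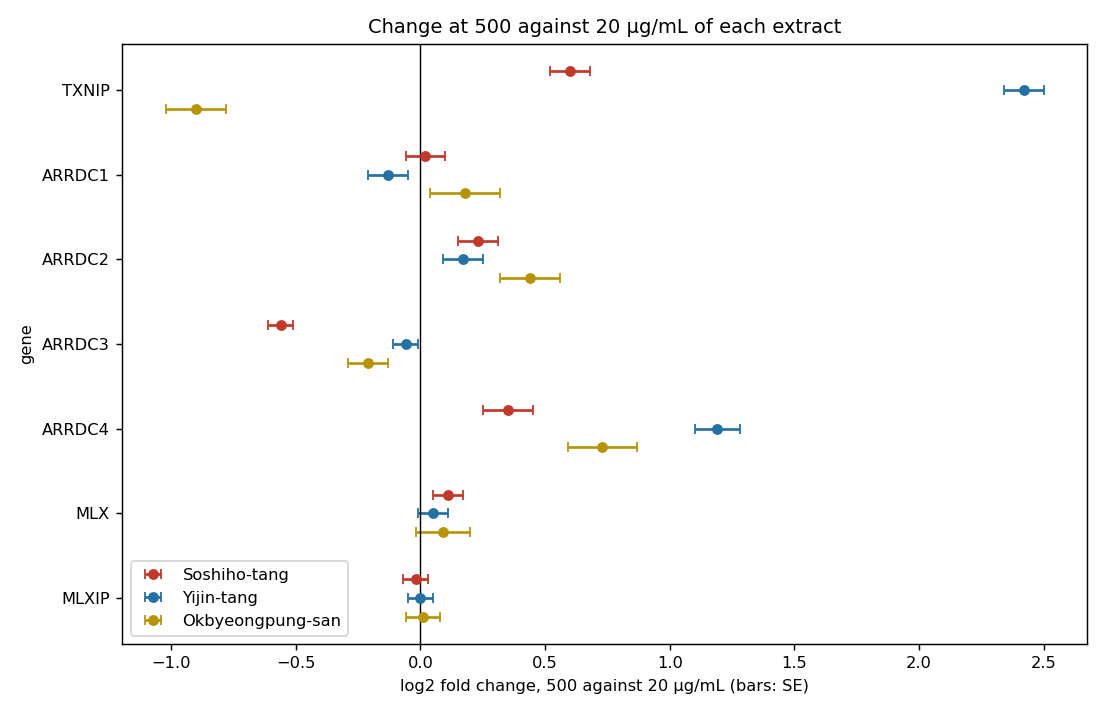
Log2 fold change of 500 against 20 µg/mL (horizontal axis) for each of the 7 genes in Soshiho-tang, Yijin-tang and Okbyeongpung-san, with SE as bars. TXNIP lies at 2.42, 0.60 and -0.90 in Yijin-tang, Soshiho-tang and Okbyeongpung-san, ARRDC4 lies above 0 in all 3, and MLX and MLXIP lie within 0.11 of 0.

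Counted by comparison, 4 of the 7 genes passed an edgeR adjusted p of 0.05 at 500 against 20 µg/mL Soshiho-tang (TXNIP, ARRDC2 and ARRDC4 higher, ARRDC3 lower), where 28.9% of all genes tested passed. With Okbyeongpung-san 3 of 7 passed (ARRDC2 and ARRDC4 higher, TXNIP lower), against 10.3% of all genes. With Yijin-tang 0 of the 5 genes other than TXNIP and ARRDC4 passed, against 5.64% of all genes, and DESeq2 also gave 0. All 5 had an unadjusted p above 0.05 in edgeR, the lowest being 0.065 for ARRDC2.

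The difference between extracts was then tested directly. The 500 against 20 µg/mL change of ARRDC3 was lower in Soshiho-tang than in Yijin-tang by -0.49 ± 0.08 on the log2 scale (edgeR interaction contrast, adjusted p = 9.26e-05), which made 1 of 5 genes tested against 13.6% of all genes. For TXNIP and ARRDC4 the same differences were -1.82 and -0.84, given without a test. Soshiho-tang and Okbyeongpung-san stand in different library sets, and the part of the set in their contrast was not tested. Between Soshiho-tang and Okbyeongpung-san, in a contrast added after the values were seen, the change of TXNIP differed by 1.5 ± 0.14 (edgeR adjusted p = 2.16e-07) and that of ARRDC3 by -0.35 ± 0.09 (edgeR adjusted p = 0.0155), 2 of 7 genes against 7.43% of all genes. ARRDC3 lost this call in 3 of 15 alternatives (only the groups compared, without replicate 2 at 500 and without replicate 3 at 20 µg/mL Okbyeongpung-san), with adjusted p from 0.00294 to 0.088. The change of ARRDC4 differed by -0.39 ± 0.17 and did not pass (edgeR adjusted p = 0.173). It passed without replicate 3 at 500 µg/mL Okbyeongpung-san, at -0.56 with an edgeR adjusted p of 0.038, the lowest over 15 alternatives, of which the highest was 0.617.

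Soshiho-tang and Yijin-tang were then compared at equal concentrations. At 500 µg/mL the level of ARRDC3 was 54.8 ± 2.82 CPM in Soshiho-tang libraries against 82.0 ± 1.54 CPM in those of Yijin-tang (SD, n = 3 each), without overlap of libraries (log2 difference -0.58 ± 0.05, edgeR adjusted p = 4.04e-08). It was the 1 gene called of the 5 tested, where 25.2% of all genes were called. TXNIP was at 14.9 ± 0.489 against 51.3 ± 1.98 CPM and ARRDC4 at 8.86 ± 0.621 against 15.8 ± 0.436 CPM, with log2 differences of -1.78 and -0.83 given as description. At 100 µg/mL 0 of 7 genes passed, against 0.753% of all genes, and at 20 µg/mL 0 of 7, against 0.13%, with 0 by DESeq2 at both. At 100 µg/mL, 2 genes had an unadjusted edgeR p under 0.05, ARRDC3 at -0.17 ± 0.05 (adjusted p = 0.207) and MLXIP at 0.12 ± 0.05 (adjusted p = 0.335), and at 20 µg/mL 0 did. TXNIP differed by -0.01 ± 0.09 at 100 and 0.04 ± 0.09 at 20 µg/mL (edgeR adjusted p = 0.977 and 0.926), and its libraries overlapped at both.

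**Figure D4:**
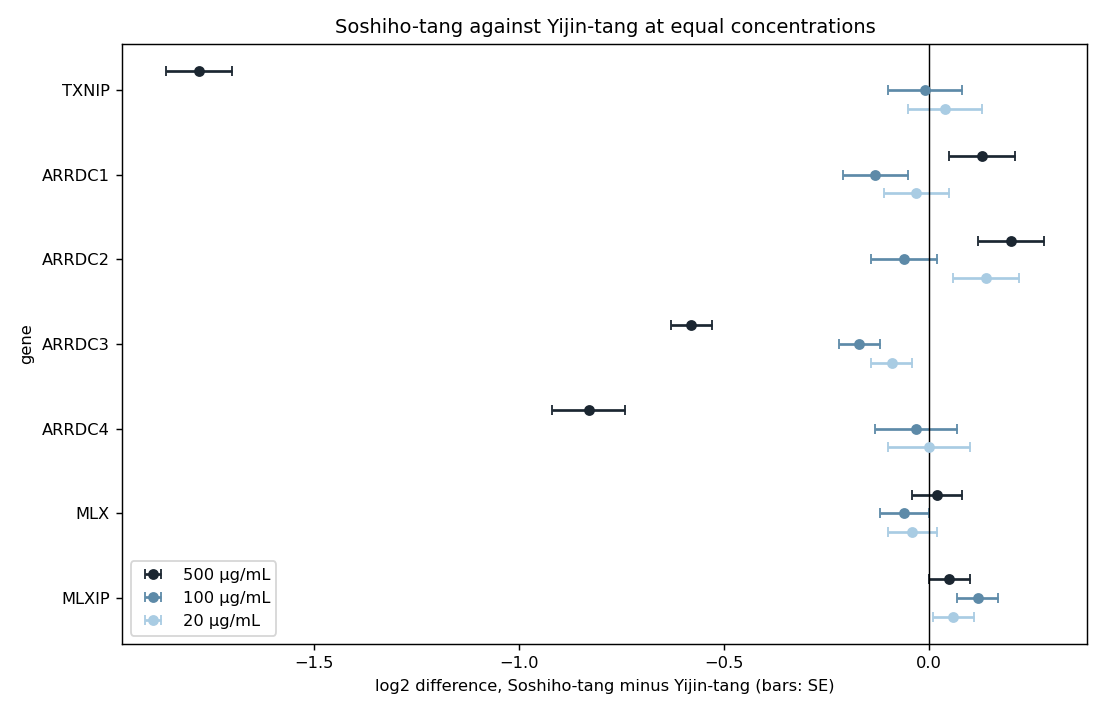
Log2 difference of Soshiho-tang minus Yijin-tang (horizontal axis) for each of the 7 genes at 500, 100 and 20 µg/mL, with SE as bars. TXNIP (-1.78), ARRDC4 (-0.83) and ARRDC3 (-0.58) lie far below 0 at 500 µg/mL, and at 100 and 20 µg/mL all 7 genes lie between -0.17 and 0.14.

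The comparisons with vehicle share the 3 vehicle libraries and cross library sets, so their values stand side by side only. Against vehicle, 5 of 7 genes passed at 500 µg/mL Soshiho-tang, where 43.9% of all genes passed. They were TXNIP (0.53 ± 0.09, edgeR adjusted p = 3.37e-05), ARRDC4 (0.62 ± 0.10, 4.02e-05), ARRDC3 (-0.63 ± 0.06, 7.98e-09), ARRDC1 (-0.28 ± 0.08, 0.00742) and MLXIP (-0.24 ± 0.05, 0.000203). At 500 µg/mL Yijin-tang 2 of 5 passed, against 31.3% of all genes, ARRDC1 (-0.41 ± 0.08, edgeR adjusted p = 0.000651) and MLXIP (-0.29 ± 0.05, 7.86e-05). TXNIP and ARRDC4 stood 4.96-fold and 2.74-fold above vehicle there, without a test. At 500 µg/mL Okbyeongpung-san 3 of 7 passed, against 24.7% of all genes: TXNIP (-1.06 ± 0.11, edgeR adjusted p = 0.000178), ARRDC4 (1.03 ± 0.13, 0.000519) and MLXIP (-0.24 ± 0.07, 0.0277). MLXIP lost the last call in 6 of 11 alternatives, over an adjusted p from 0.000829 to 0.0859 in edgeR and DESeq2. These were the replicate block (-0.23, edgeR adjusted p = 0.063), no filter, and leaving out vehicle replicate 1 or 3 or either Okbyeongpung-san library. The block joins replicate 3 of Okbyeongpung-san (batch D) with replicate 3 of vehicle (batch E), so it does not adjust this contrast for batch. ARRDC1 lost its call at 500 µg/mL Soshiho-tang without replicate 3 (-0.21, edgeR adjusted p = 0.0579, the highest over 12 alternatives, of which the lowest was 0.00163). MLX, not called, passed in either of Soshiho-tang and Yijin-tang (500 µg/mL) without vehicle replicate 1, at 0.22 and 0.20 (edgeR adjusted p = 0.00677 and 0.0191), the lowest over 12 alternatives each, of which the highest were 0.278 and 0.447. It also passed without replicate 3 at 500 µg/mL Soshiho-tang.

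At 20 µg/mL Soshiho-tang 2 of 7 genes passed against vehicle, where 21.8% of all genes passed, ARRDC1 (-0.31 ± 0.08, edgeR adjusted p = 0.00971) and MLXIP (-0.23 ± 0.05, 0.00151). At 20 µg/mL Yijin-tang 3 of 7 passed, against 19.8% of all genes, ARRDC1 (-0.28 ± 0.08, edgeR adjusted p = 0.0209), ARRDC2 (-0.33 ± 0.08, 0.00764) and MLXIP (-0.29 ± 0.05, 0.000266). Without vehicle replicate 1, ARRDC1 at 20 µg/mL did not pass in either extract (edgeR adjusted p = 0.056 and 0.0931), nor did ARRDC2 (0.0572). ARRDC1 at 20 µg/mL Yijin-tang also did not pass without replicate 1 or 3 of that group or in 1 fit of 27 libraries (edgeR adjusted p = 0.0523), and ARRDC2 did not pass with no filter (0.0595). Over all 12 alternatives, the adjusted p ran from 0.00988 to 0.056, from 0.0191 to 0.0931 and from 0.00743 to 0.0595 in that order. ARRDC4 lay above vehicle (5.76 ± 0.157 CPM) without overlap at 20 µg/mL in both extracts, with 6.92 ± 0.794 CPM in Soshiho-tang and 6.92 ± 0.7 CPM in Yijin-tang (SD, n = 3 each). Its log2 fold changes of 0.27 ± 0.10 and 0.27 ± 0.11 did not pass (edgeR adjusted p = 0.0685 and 0.0816). They passed at 0.34 without replicate 3 of Soshiho-tang (edgeR adjusted p = 0.0379) and at 0.34 without replicate 1 of Yijin-tang (0.0462), the lowest over 12 alternatives each, of which the highest were 0.319 and 0.26. MLXIP stood at 65.3 to 69.3 CPM in vehicle and did not exceed 60.6 CPM in any extract library. The mitochondrial share of counts was 10.47% to 10.7% in vehicle and 5.68% to 9.59% in the extract groups other than Yijin-tang at 500 µg/mL, and its part in these differences was not tested.

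The genes around this family were counted in lists of the pathway at 500 against 20 µg/mL. These lists were chosen with earlier results of these data known, so their counts and p-values are descriptive. Beside each count stand the shares of all genes that passed in the same comparison, 28.9% with Soshiho-tang, 5.64% with Yijin-tang and 10.3% with Okbyeongpung-san. Calls of single list genes were not followed in the alternatives. Of 8 tested factors of the MLX and MAX network, which compete or pair with MLX and MYC for E-boxes, 5 rose and 1 fell with Soshiho-tang (28.9% of all genes passed), with a median log2 fold change of 0.29 against 0.007 over all genes. MXD1, a repressor that pairs with MAX, rose from 9.73 ± 0.859 to 17.2 ± 2.21 CPM (0.82 ± 0.10, edgeR adjusted p = 8.92e-07), and its relative MXI1 rose by 0.43. MXD4, another of these repressors, fell by 0.53 (edgeR adjusted p = 5.45e-06). No member of this list passed with Yijin-tang or Okbyeongpung-san (0 of 8 each, against 5.64% and 10.3% of all genes).

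Of 6 genes of the thioredoxin system, the redox partner of TXNIP, 2 rose and 1 fell with Soshiho-tang, 1 rose with Yijin-tang, and 3 rose and 1 fell with Okbyeongpung-san, against 28.9%, 5.64% and 10.3% of all genes. TXNRD1, thioredoxin reductase 1, rose in each, by 0.51, 0.22 and 0.62 (edgeR adjusted p = 4.23e-07, 0.0269 and 0.00107). TXN, the thioredoxin that TXNIP binds, rose by 0.39 with Soshiho-tang and by 0.73 with Okbyeongpung-san (edgeR adjusted p = 0.000367 and 0.0103). NXN, nucleoredoxin, fell by 0.67 and by 0.56 in the same extracts.

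Of 9 tested cargo proteins and partners of alpha-arrestins (8 with Okbyeongpung-san), 1 rose and 2 fell with Soshiho-tang, 1 rose and 1 fell with Yijin-tang, and 2 rose and 1 fell with Okbyeongpung-san. The shares of all genes were 28.9%, 5.64% and 10.3%, and the count with Soshiho-tang lies near its share. SLC2A1, the glucose transporter GLUT1 that TXNIP removes from the membrane, fell from 181 ± 4.54 to 92.7 ± 1.9 CPM at 500 against 20 µg/mL Soshiho-tang (-0.96 ± 0.05, edgeR adjusted p = 5.89e-12). SLC2A3, the transporter GLUT3, rose by 0.64 with Soshiho-tang and by 0.62 with Okbyeongpung-san (edgeR adjusted p = 2.24e-08 and 0.000518). ITGB4, the integrin subunit that ARRDC3 binds, fell by 1.10 with Okbyeongpung-san and by 0.27 with Yijin-tang (edgeR adjusted p = 0.000768 and 0.0439). DDIT4, a stress-induced inhibitor of mTORC1 and a partner of TXNIP, rose by 0.48 with Yijin-tang and by 0.64 with Okbyeongpung-san (edgeR adjusted p = 0.00191 and 0.038).

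Of 7 tested genes other than the family that respond to carbohydrate, 4 fell with Soshiho-tang, 1 with Yijin-tang and 2 with Okbyeongpung-san, and 0 rose, against 28.9%, 5.64% and 10.3% of all genes called in either direction. LDHA, lactate dehydrogenase A, fell by 0.72 with Soshiho-tang and by 0.17 with Yijin-tang (edgeR adjusted p = 1.34e-10 and 0.0362). PFKFB3, which makes an activator of glycolysis, fell by 0.40 with Soshiho-tang (edgeR adjusted p = 4.86e-05). FASN, fatty acid synthase, and ACACB, acetyl-CoA carboxylase 2, fell by 0.36 and 0.55 with Okbyeongpung-san (edgeR adjusted p = 0.0172 and 0.0316). The list medians were -0.19, -0.06 and -0.01 in the 3 extracts, against 0.007, 0.001 and 0.003 over all genes.

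Of 8 NEDD4 family ligases, 1 rose and 2 fell with Soshiho-tang, among them NEDD4 itself at -0.26 ± 0.05 (edgeR adjusted p = 0.00089), and 0 passed with Yijin-tang or Okbyeongpung-san (5.64% and 10.3% of all genes). Of 4 kinases that phosphorylate TXNIP, AKT2 fell by 0.18 with Soshiho-tang and 0 passed in the other two. Both counts with Soshiho-tang lie near the 28.9% of all genes. ARRB1 and ARRB2, the beta-arrestins, passed in none of the 3 comparisons.

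The genes most like TXNIP over the 30 libraries, among 13030 genes with a symbol and a mean of at least 1 CPM, were PARP2 (Pearson's r = 0.86), SLC44A2 (0.85), TESMIN (0.84), EME1 (0.83) and POLR3GL (0.82). PARP2, a DNA repair enzyme, stood at 47.3 CPM at 500 and 37.7 CPM at 20 µg/mL Yijin-tang, and at 31.8 against 37.6 CPM in Okbyeongpung-san. POLR3GL, a subunit of RNA polymerase III, is a neighbour of TXNIP on chromosome 1 with 13587 bases between the genes, and it stood at 22 ± 0.284 against 17.9 ± 1.42 CPM in Yijin-tang (SD, n = 3 each). In Okbyeongpung-san, where TXNIP fell, POLR3GL stood at 16.7 against 16.6 CPM. By Spearman's rho these 5 values were lower, from 0.43 for TESMIN to 0.76 for SLC44A2. This ranking, like the next one for ARRDC4, includes the Yijin-tang libraries at 500 µg/mL, on whose values both genes were selected. It was not repeated without them.

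The genes most like ARRDC4 were INHBA (0.86), SMOX (0.84), PTGR1 (0.82), IL4R (0.81) and IL1RL1 (0.80), with no gene shared with the list for TXNIP. INHBA, which encodes the inhibin beta A subunit of activins, stood at 131 against 86.0 CPM at 500 and 20 µg/mL Yijin-tang and at 138 against 83.3 CPM in Okbyeongpung-san. INHBA was higher at 500 µg/mL in both extracts, but it was picked by its likeness to ARRDC4 in these same libraries. SMOX, spermine oxidase, stood at 86.6 against 55.3 CPM and at 63.5 against 49.7 CPM in the same order. Libraries share sets and depth, so these likenesses are descriptive.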

How the data were processed

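RNA sequencing of 30 libraries was analysed. The deposited values are estimated counts per Ensembl gene that the authors made with FastQC 0.11.9, Trim Galore 0.6.5, STAR 2.7.3a and RSEM 1.3.3 on hg38/GRCh38, per the submitters' processing notes. The strand setting and annotation release are not given in the sources used here. Reads from a gene and its antisense partner may therefore be mixed. RSEM divides reads that match several genes. Between 9.24% and 10.73% of values per library were not whole, and all were rounded. Of 60675 entries, 57055 matched GENCODE v29 by identifier, which gave symbols and coordinates. No columns of other samples were used.

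Levels are CPM on TMM-scaled library sizes. Tests were quasi-likelihood F tests in edgeR 4.0.16 (limma 3.58.1, R 4.3.3) after filterByExpr (minimum count 10, minimum total 15), with Benjamini-Hochberg adjustment over all genes tested and a threshold of 0.05. Vehicle, Soshiho-tang and Yijin-tang were fitted together (21 libraries) and Okbyeongpung-san with vehicle (9 libraries). The contrast of Soshiho-tang with Okbyeongpung-san, in 27 libraries, was added after the values were seen. Soyo-san was described as log2 ratios of CPM + 1. Counting intervals are 95%, belong to ratios of CPM without the added 1, and cover counting error only. The script was tested on simulated data. Alternatives were RLE scaling, no filter, DESeq2 1.42.0, other sets of libraries in the fit, a replicate block and leaving out each library.

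The genes and pathway lists were chosen with earlier results of these data known. Genes named are the 7 members, ARRDC5 and MLXIPL, up to 2 called genes a direction per list with the largest fold change at 500 against 20 µg/mL, and the 5 genes most like TXNIP and ARRDC4. A gene that this rule takes is not reported here. Overlapping antisense genes were added after their levels were seen. Replicate numbers of Okbyeongpung-san coincide with batches E and D of the sample titles, and same-numbered libraries at 500 and 20 µg/mL deviated together (r = 0.287). The 24 pairs of replicate libraries gave a chi-square per degree of freedom of 3.21 to 39.47, so no pair looked like a single library deposited again.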

Additional observations from a re-analysis of the deposited data

Results flagged for a closer look

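The change of ARRDC3 between 20 and 500 µg/mL differed between Soshiho-tang and Yijin-tang by -0.49 on the log2 scale, and between Soshiho-tang and Okbyeongpung-san by -0.35, both by a test of the difference itself in edgeR. The contrast with Okbyeongpung-san was added after the values were seen and crosses library sets. All 3 libraries of Soshiho-tang at 500 µg/mL lay below all other libraries.

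TXNIP moved in opposite directions between extracts. At 500 against 20 µg/mL its log2 fold change was 0.60 in Soshiho-tang and -0.90 in Okbyeongpung-san, without overlap of libraries in either. The difference of 1.5 passed the edgeR test, in a contrast that was added after these values were seen and crosses library sets. In Yijin-tang the log2 fold change was 2.42. Its difference from the -0.90 of Okbyeongpung-san was not tested, because TXNIP was picked with the Yijin-tang values known.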

How the results depend on the processing

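At 100 and 20 µg/mL, Soshiho-tang and Yijin-tang differed in few genes and the count moved with the setting. It was 127 at 100 µg/mL against 396 with no filter and 46 with only the groups compared, and 22 at 20 µg/mL against 252, 6 and, with DESeq2, 56. At 500 against 20 µg/mL, Yijin-tang gave 951 genes and 308 with only the groups compared. Okbyeongpung-san gave 1716 genes, 2604 with no filter, 3082 in 1 fit of 27 libraries and 523 with only the groups compared, where 1 of the 7 genes was called in place of 3. The contrast of Soshiho-tang with Okbyeongpung-san gave 1292 genes and 575 with only the groups compared, where 1 of the 7 genes was called in place of 2. The cause was not tested.

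Leaving out single libraries gave 505 to 1057 genes for Yijin-tang (fewest without replicates 1 or 2) and 630 to 1966 for Okbyeongpung-san (fewest without replicate 2) at 500 against 20 µg/mL, 61 to 124 and 8 to 38 between Soshiho-tang and Yijin-tang at 100 and 20 µg/mL, and 801 to 1786 for the contrast of Soshiho-tang with Okbyeongpung-san. Against vehicle it gave 2228 to 3869 of 4113 genes at 500 µg/mL Okbyeongpung-san and 2081 to 2822 of 3338 at 20 µg/mL Yijin-tang. The called number of the 7 genes became 2 to 4 for Soshiho-tang and 1 to 2 for Okbyeongpung-san at 500 against 20 µg/mL, 1 to 3 for both Soshiho-tang and Yijin-tang at 20 µg/mL against vehicle, and 1 to 3 for the contrast of Soshiho-tang with Okbyeongpung-san.

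TXNIP kept its direction and call in each alternative at 500 against 20 µg/mL Soshiho-tang (0.57 to 0.65) and Okbyeongpung-san (-0.96 to -0.84), as did ARRDC3 in Soshiho-tang (-0.6 to -0.52). The value of MLXIP for Yijin-tang, not called, went from -0.004 to 0.002 with no filter. Other values that were not called changed sign around 0 when single libraries were left out. At 500 against 20 µg/mL this held for ARRDC1 and MLXIP with Soshiho-tang (-0.06 to 0.10 and -0.06 to 0.009), MLXIP with Yijin-tang (-0.03 to 0.03), and MLX and MLXIP with Okbyeongpung-san (-0.01 to 0.19 and -0.04 to 0.07). Between Soshiho-tang and Yijin-tang it held for MLX at 500 µg/mL (-0.02 to 0.06), for TXNIP, ARRDC2 and ARRDC4 at 100 µg/mL (-0.09 to 0.07, -0.12 to 0.01 and -0.14 to 0.02), for TXNIP and ARRDC4 at 20 µg/mL (-0.04 to 0.13 and -0.10 to 0.07), and for the difference of the effects in MLXIP (-0.05 to 0.01). Against vehicle it held for ARRDC2 at 500 µg/mL Soshiho-tang (-0.02 to 0.10), MLX at 500 µg/mL Okbyeongpung-san (-0.008 to 0.19) and 20 µg/mL Soshiho-tang (-0.02 to 0.11), and ARRDC3 at 20 µg/mL Yijin-tang (-0.02 to 0.03). In the contrast of Soshiho-tang with Okbyeongpung-san it held for ARRDC1 (-0.38 to 0.01), MLX (-0.09 to 0.12) and MLXIP (-0.09 to 0.02). RLE scaling moved the median of all genes by at most 0.014.

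With the replicate number as a block, 500 against 20 µg/mL gave 4874 genes for Soshiho-tang, 927 for Yijin-tang and 1763 for Okbyeongpung-san, and of the calls of the 7 genes it changed that of MLXIP at 500 µg/mL Okbyeongpung-san against vehicle alone. In that contrast the block does not stand for batch, because all vehicle libraries are in batch E. Same-numbered libraries of Soshiho-tang, Yijin-tang and vehicle gave correlations from -0.44 to 0.284. Whether their numbers pair libraries is not said in the labels.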
